A study of Mus musculus with 6 samples.

Results

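The subunits of mitochondrial complex I were followed in osteal macrophages, which are resident on bone surfaces, after ovariectomy. Members were the genes of the deposited table whose symbol starts with mt-Nd or with Nduf followed by the letter a, b, c, s or v and a digit, leaving out the assembly factors named Ndufaf. This gave 46 of 11815 genes, of which 7 are encoded by the mitochondrial genome and 39 by nuclear chromosomes. GENCODE M21 holds 48 genes that match the rule, and Ndufa11b and Ndufs6b were not analysed here. All 46 members passed the filter for testing, a mean of at least 1 TPM (the usual length-adjusted unit of transcript abundance), and no member was at 0 in a whole group.

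The OVX mice were female BALB/c mice ovariectomized at 10 weeks of age, and the sham mice were females of the same strain and age with a control operation. Both were sampled 4 weeks after surgery, with no drug or transgene in either group. Bone-lining cells from femurs and vertebrae of 20 mice per condition were digested out of bone and sorted with antibodies to CD11b, F4/80 and CD68, and total RNA was sequenced in 3 OVX and 3 sham libraries. The labels do not say which mice went into which library or that replicates are separate animals, so p-values measure the spread between libraries, which may be technical.

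Complex I takes electrons from NADH, passes them along iron-sulfur clusters to ubiquinone and uses the energy to pump protons across the inner mitochondrial membrane. Its membrane arm is built around the mitochondrially encoded ND proteins, and its matrix arm around nuclear core proteins that carry the flavin and the clusters. The remaining nuclear subunits, called accessory, surround this core and serve assembly and stability. The enzyme is a main site of entry into the respiratory chain and a source of superoxide, and macrophages are known to change its use when they are activated. Levels are given below as scaled TPM, the deposited values divided by 1 factor per library so that most genes match between libraries. Fold changes are OVX over sham on the log2(scaled TPM + 1) scale with their standard error, from limma over all genes tested.

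Some properties of the libraries touch every result. OVX replicate 3 stood apart from the other 5 libraries. Its mean correlation with them was 0.945, against 0.971 to 0.974 for the others, and the listed transcripts held 66.3% of its full TPM scale, against 80.5% to 83.0% elsewhere. Group results, and the members that turn on it, are therefore also given without it. In limma 1 of 8185 genes passed an adjusted p of 0.05, which is 0.0122% of genes, and this was Gm10132, a predicted gene, higher in OVX. Of 12 neutrophil markers 8 were listed, and all 7 tested had a fold change above 0. In 4 of them all OVX libraries lay above sham, beside 7.54% of tested genes. Lcn2 and Ltf fell below every sham library in OVX replicate 3, with 771.1 against 1135 to 1190 and 59.33 against 77.79 to 87.93. The summed level of neutrophil markers was 133500 to 141100 scaled TPM in OVX against 69770 to 88870 in sham libraries. Almost all of it was from S100a8 and S100a9, the subunits of calprotectin. Skeletal muscle markers were lower: all 10 tested of 12 listed had a fold change below 0, with sums of 165.7 to 207.0 against 267.3 to 284.5. Mb, the oxygen store myoglobin, was listed at 0 in OVX replicate 3. Myh1 and Myh4, too low to be tested, went the other way, with means of 0.224 and 0.218 in OVX against 0.0159 and 0.0509. Stromal markers were mixed, with 4 of 9 above 0, and their sum of 9719 to 13650 against 13930 to 14730 was almost all Dcn, which encodes the matrix protein decorin. Chondrocyte markers were mostly higher, with 11 of 13 above 0 and 9 of 13 with all OVX libraries above sham, beside 7.54% of tested genes. Their sums of 981.8 to 1377 against 1348 to 1513 went the other way. Those sums were mostly Chad and Comp, the 2 markers below 0. Of 12 sort and macrophage markers 9 were listed and 5 of the 6 tested were above 0, with sums of 1333 to 1692 against 1257 to 1348. Itgam, which encodes CD11b, had 18.73, 18.52 and 28.56 in OVX against 11.29, 13.57 and 10.80 in sham libraries, and Cd68 had 41.01, 43.05 and 36.77 against 32.28, 37.74 and 33.51. Csf1r, the receptor for the macrophage growth factor, was listed at 0 in all libraries and Adgre1, which encodes F4/80, was between 0.467 and 1.058 against 0.641 and 1.155. The part of these other cells in the complex I values was not tested, and in bulk RNA fewer cells of a type and less RNA per cell cannot be told apart.

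The mitochondrially encoded subunits were the most abundant members. Their summed level was 11670, 11640 and 12780 scaled TPM in OVX replicates 1, 2 and 3, against 13960, 13750 and 13840 in sham replicates 1, 2 and 3. The groups did not overlap, and the means were 12030 ± 649 in OVX and 13850 ± 102 in sham libraries (SD, n = 3 each). Of the 7 genes 6 had a fold change below 0, where 50.9% of all tested genes did, and their median log2 fold change was -0.14 against -0.01 for all tested genes. None passed the adjusted p in limma, and 2 were lower at an unadjusted p under 0.05, a mark that 3.38% of tested genes met in this direction. Without OVX replicate 3 the count below 0 was again 6 of 7, beside 50.8% of tested genes, and the median was -0.25. In that fit 5 of the 7 were lower at an unadjusted p under 0.05, beside 4.67% of tested genes, and none passed the adjusted p, which 0.0363% of genes passed as lower and 0.109% as higher.

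The clearest difference was at mt-Nd1, a membrane core subunit next to the ubiquinone site, encoded at bases 2751 to 3707 of the mitochondrial genome. It had 3508, 3214 and 3105 scaled TPM in OVX and 4469, 4329 and 4102 in sham libraries. Every OVX library lay below every sham library, including OVX replicate 3, and the log2 fold change was -0.39 ± 0.13 (unadjusted p = 0.0198, limma adjusted p = 0.671). Without OVX replicate 3 it was -0.36 ± 0.08 with a limma adjusted p of 0.238.

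The subunits mt-Nd4 and mt-Nd5, which resemble cation antiporters and form proton channels of the distal membrane arm, were also lower without overlap. mt-Nd5 had 872.7, 857.5 and 712.7 in OVX and 982.8, 1001 and 1089 in sham libraries, a log2 fold change of -0.34 ± 0.14 (unadjusted p = 0.0463, limma adjusted p = 0.702) and -0.24 without OVX replicate 3. mt-Nd4 had 1961, 1889 and 2104 against 2332, 2222 and 2213, a log2 fold change of -0.19 ± 0.13 (limma adjusted p = 0.769) and -0.23 without that library. With mt-Nd1 these made 3 of 7 members whose OVX libraries all lay below sham, beside 7.6% of all tested genes.

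The other 4 overlapped between groups. mt-Nd2, the third antiporter-like channel subunit, had 1869, 1833 and 2486 in OVX against 2065, 2316 and 2215 in sham libraries, so that OVX replicates 1 and 2 were below sham and replicate 3 above it. mt-Nd6, the only protein encoded on the light strand, showed the same order with 2004, 2277 and 3165 against 2519, 2693 and 2581. Its log2 fold change was -0.09 ± 0.19, and -0.28 without OVX replicate 3. mt-Nd3, a small subunit whose loop moves when the enzyme changes between its active and resting forms, went the other way in that library, with 1275, 1514 and 889.9 in OVX against 1496, 1033 and 1503 in sham, and its log2 fold change of -0.14 ± 0.24 became 0.07 without it.

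mt-Nd4l was the least abundant and most scattered of the 7 (175.5, 56.78 and 314.0 in OVX against 93.03, 158.2 and 139.8 in sham libraries), with a log2 fold change of 0.20 ± 0.57 that became -0.34 without OVX replicate 3. It is read from the same messenger as mt-Nd4, whose level was higher in every library. The annotated genes overlap by 7 bases, at 10167 to 10173 of the mitochondrial genome, and a read that spans the junction belongs to both. The last 30 bases of mt-Nd4l and the first 30 of mt-Nd4, on the plus strand of GRCm38 from GENCODE M21, are shown because this shared stretch, in capitals, bears on how the pair can be counted:

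mt-Nd4l, bases 10144 to 10173: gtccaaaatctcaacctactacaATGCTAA

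mt-Nd4, bases 10167 to 10196: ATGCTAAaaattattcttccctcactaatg

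The capitals hold the start codon of mt-Nd4 and the stop codon of mt-Nd4l. mt-Nd5 and mt-Nd6 share 14 bases at their ends, 13552 to 13565, on opposite strands. The library kit keeps the strand, but no source used here says whether counting used it, and the levels of these overlapping pairs are uncertain to that extent.

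**Figure D1:**
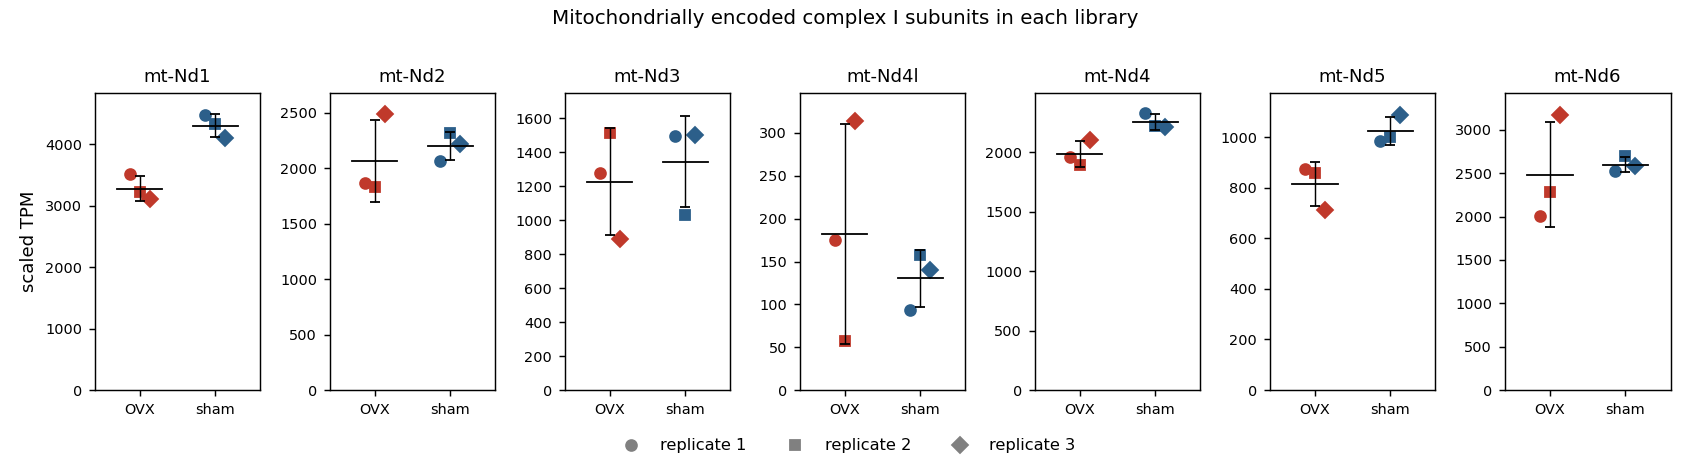
Scaled TPM (y axis, from 0, a separate scale per panel) of the 7 mitochondrially encoded subunits in the OVX and sham libraries. Points are libraries, with a marker shape per replicate number, and bars are the mean and SD of 3. All 3 OVX points lie below all 3 sham points for mt-Nd1, mt-Nd4 and mt-Nd5, and the groups overlap in the other 4 panels.

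The 7 nuclear core subunits, which form the electron path of the matrix arm, had fold changes on both sides of 0. Their summed level was 380.6, 362.2 and 409.3 scaled TPM in OVX against 413.8, 400.0 and 388.6 in sham libraries. OVX replicates 1 and 2 lay below every sham library, and the ranges overlap only through OVX replicate 3, the highest of its group. Above 0 were 3 and below 0 were 4 of the fold changes, with a median of -0.09, and -0.01 without OVX replicate 3. None passed the adjusted p in limma, and 1 of the 7 was lower at an unadjusted p under 0.05, beside 3.38% of tested genes.

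That 1 was Ndufs7, the subunit that holds the last iron-sulfur cluster before ubiquinone, at chr10:80249121-80256794 of GRCm38. It had 85.32, 82.51 and 76.61 scaled TPM in OVX and 97.85, 103.2 and 104.2 in sham libraries. All OVX libraries lay below all sham libraries, with OVX replicate 3 the lowest, and the log2 fold change was -0.32 ± 0.12 (unadjusted p = 0.0346, limma adjusted p = 0.688). Without OVX replicate 3 it was -0.27 ± 0.09. The table lists 1 of its 6 annotated transcripts.

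Ndufs8 and Ndufs3, of the same ubiquinone-binding Q module, did not follow it. Ndufs8, which carries a pair of clusters, had 77.68, 70.61 and 85.67 in OVX against 75.54, 78.83 and 71.06 in sham libraries. Ndufs3, needed early in assembly of this module, had 65.48, 54.17 and 62.90 against 66.98, 61.65 and 49.87. Both overlapped almost fully between groups, with log2 fold changes of 0.05 ± 0.13 and 0.04 ± 0.16 whose signs change with the scaling.

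The Q module also holds the accessory subunit Ndufa9, which sits beside the ubiquinone channel. It had 22.24, 24.36 and 25.74 in OVX against 28.07, 31.34 and 26.94 in sham libraries, with a log2 fold change of -0.25 ± 0.14 (limma adjusted p = 0.733) and -0.29 without OVX replicate 3. With Ndufs7 it made 2 of 39 nuclear members whose OVX libraries all lay below sham, a smaller share than the 7.6% of all tested genes.

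The flavin end of the enzyme, the N module, holds the core subunits Ndufv1, Ndufv2 and Ndufs1. Ndufv1, which binds NADH and the flavin, had 11.40, 16.96 and 10.30 in OVX against 13.34, 11.31 and 18.38 in sham libraries. Ndufs1, with most of the clusters of this module, had 14.04, 15.10 and 8.778 against 10.51, 13.66 and 15.86. Both were among the least abundant members, and for both OVX replicate 3 was the lowest library of all 6. Their log2 fold changes of -0.15 ± 0.25 and -0.09 ± 0.24 were -0.01 and 0.14 without it.

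Ndufv2, which carries a cluster beside the flavin, had 104.0, 112.6 and 159.2 in OVX against 134.0, 118.9 and 113.6 in sham libraries. Here OVX replicate 3 was the highest of the 6 and OVX replicates 1 and 2 the lowest, and the log2 fold change was 0.01 ± 0.19, or -0.17 without OVX replicate 3. For Ndufv1 the table lists 1 of 14 annotated transcripts, and for Ndufs1, with 4 of 13, the leading one is annotated as a retained intron, so these levels can miss part of the coding messenger.

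The 32 other nuclear members, counted here as accessory, behaved unlike the core in 1 library. They include Ndufa4, Ndufa4l2, the gene Ndufb1-ps, annotated as non-coding, and the pseudogene Ndufb4c. They summed to 7174, 6882 and 12540 scaled TPM in OVX against 7208, 7911 and 6371 in sham libraries. OVX replicates 1 and 2 lay inside the sham range and OVX replicate 3 far above every other library. Of the 32 genes 27 had their highest value in OVX replicate 3, against 2 of the 7 nuclear core genes, beside 32.6% of all tested genes. The lowest value was in OVX replicate 3 for 1 accessory and 4 nuclear core genes, beside 32.9% of all tested genes. Relative to OVX replicates 1 and 2, the median of OVX replicate 3 on the log2 scale was 0.81 higher for accessory genes and 0.13 lower for nuclear core genes.

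This library set the direction of the nuclear members as a group. With all 6 libraries 30 of 39 nuclear members had a fold change above 0, with a median of 0.15. Without OVX replicate 3 there were 16 above and 23 below 0, with a median of -0.04, and on TPM as deposited, where the median of all tested genes shifts to -0.15, there were 18 above and 21 below with a median of -0.02. No nuclear member passed the adjusted p in limma, with or without OVX replicate 3. At an unadjusted p under 0.05 none was higher, beside 3.62% of tested genes (4.68% without OVX replicate 3), and none had all OVX libraries above sham, beside 7.54% of tested genes.

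**Figure D2:**
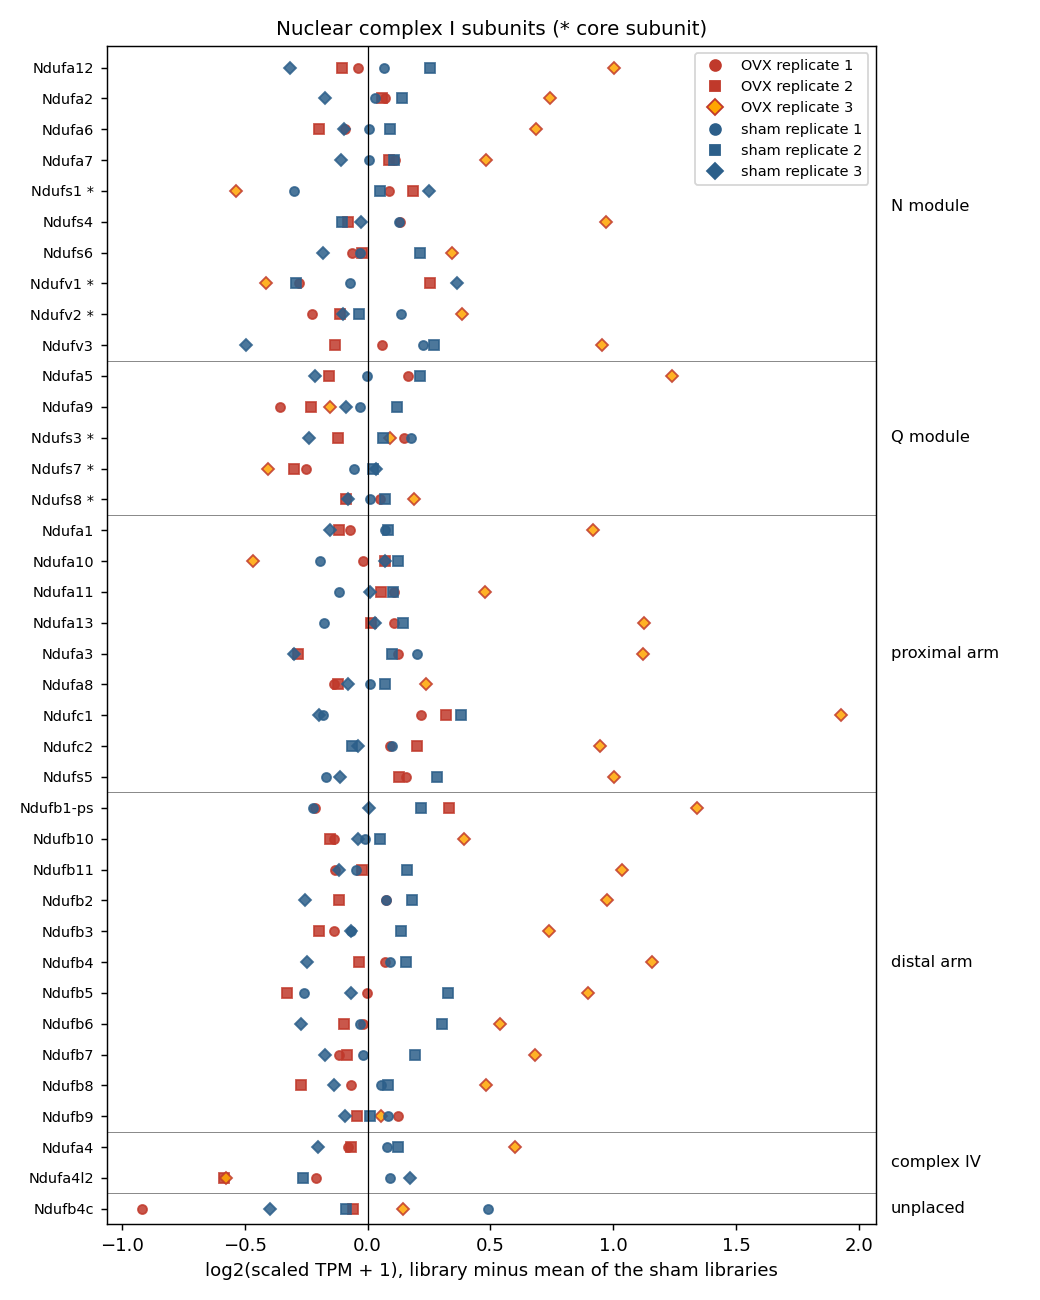
Each library's log2(scaled TPM + 1) minus the mean of the sham libraries (x axis) for 38 nuclear members, grouped by the part of the enzyme they belong to, with core subunits starred. Colours mark the group, shapes the replicate number, and orange faces OVX replicate 3, which is the highest of the 6 libraries for 29 of the 38 genes and the lowest for 4.

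In the N module the accessory genes with the smallest p were Ndufa7, Ndufa2 and Ndufs4. Ndufa2, a small protein with a thioredoxin fold and the second most abundant nuclear member, had 618.1, 613.9 and 985.8 scaled TPM in OVX against 602.1, 649.4 and 522.3 in sham libraries. Its log2 fold change was 0.29 ± 0.21, and 0.07 without OVX replicate 3. Ndufa7, a small basic subunit of this module, had 430.0, 422.3 and 555.9 in OVX against 398.6, 427.9 and 368.5 in sham libraries. Its OVX replicates 1 and 2 were near the top of the sham range, and the log2 fold change was 0.23 ± 0.16 (limma adjusted p = 0.769), or 0.10 without OVX replicate 3.

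Transcripts of Ndufa7 did not move together. Its coding transcript ENSMUST00000048249 had 254.0, 229.3 and 407.0 in OVX against 243.9, 265.1 and 207.5 in sham libraries. A transcript annotated as a target of nonsense-mediated decay, ENSMUST00000173132, had 169.9, 186.4 and 122.6 against 149.8, 154.3 and 156.3. OVX replicate 3 was the highest library for the coding transcript and the lowest for the other.

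The proximal membrane arm, which joins the matrix arm, held the member with the largest fold change above 0. This was Ndufc1, a small single-span membrane subunit, with 229.4, 246.8 and 753.3 in OVX against 173.8, 257.2 and 172.0 in sham libraries, a log2 fold change of 0.82 ± 0.45 (limma adjusted p = 0.731) and 0.27 without OVX replicate 3. Only OVX replicate 3 left the sham range, and all 4 annotated transcripts of the gene, coding and non-coding, had their highest value there. Ndufc2, its partner in the membrane, had 131.7, 141.9 and 239.0 against 132.4, 118.1 and 120.2, a log2 fold change of 0.41 ± 0.23 (limma adjusted p = 0.733) and 0.15 without that library.

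Ndufs5, an accessory subunit of the intermembrane face with paired cysteines, had 387.5, 380.3 and 697.6 in OVX against 309.1, 422.8 and 321.4 in sham libraries. Ndufa13, also called GRIM-19 and studied in cell death, had 71.52, 66.86 and 145.8 against 58.56, 73.47 and 67.72. Both had OVX replicates 1 and 2 inside the sham range, and their log2 fold changes of 0.43 ± 0.26 and 0.42 ± 0.30 were 0.14 and 0.06 without OVX replicate 3.

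Ndufa1, needed for assembly of the membrane arm and the most abundant nuclear member, had 694.2, 672.6 and 1378 in OVX against 766.0, 772.2 and 656.7 in sham libraries. Its log2 fold change of 0.24 ± 0.28 became -0.09 without OVX replicate 3. Other genes of the same arm differed from these. Ndufa10, a protein related to nucleoside kinases, had 32.81, 34.98 and 23.77 against 28.97, 36.30 and 34.95, with OVX replicate 3 as the lowest library. Ndufa8, a further intermembrane-space subunit, had 94.53, 95.54 and 122.6 against 104.8, 109.1 and 98.25, and a log2 fold change of -0.01 ± 0.15.

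The distal membrane arm had 11 members of the Ndufb family, which surround the channel subunits mt-Nd4 and mt-Nd5. All 11 had a fold change above 0 with a median of 0.16, and without OVX replicate 3 there were 3 above and 8 below 0 with a median of -0.08. OVX replicate 3 was the highest library for 10 of them, the exception being Ndufb9. Ndufb4, a subunit of this arm, is an example with 111.7, 103.9 and 239.0 in OVX against 113.4, 118.8 and 89.48 in sham libraries. The mouse gene listed as Ndufb1-ps, annotated as a non-coding RNA with a shared promoter, had 106.0, 155.2 and 313.9 against 105.4, 143.4 and 123.7, and Ndufb4c, annotated as a processed pseudogene and named after Ndufb4, had 17.26, 32.20 and 37.23 against 47.50, 31.47 and 25.20. Reads that could belong to either Ndufb4 or Ndufb4c make the value of the pseudogene uncertain.

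Ndufa4 and Ndufa4l2 carry complex I names, but Ndufa4 is now assigned to complex IV. Ndufa4 was the third most abundant nuclear member, with 473.7, 478.1 and 760.1 in OVX against 529.5, 546.8 and 435.4 in sham libraries. Its hypoxia-inducible relative Ndufa4l2 was the lowest member of all, with 4.981, 3.616 and 3.643 against 6.374, 4.775 and 6.795, and a log2 fold change of -0.46 ± 0.20 (unadjusted p = 0.0507, limma adjusted p = 0.704). OVX replicates 2 and 3 lay below every sham library and OVX replicate 1 did not, and leaving out OVX replicate 3 gave -0.40.

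Ratios within a library do not depend on how libraries are scaled. The summed level of mitochondrially encoded over all nuclear members was 1.54, 1.61 and 0.987 in OVX replicates 1, 2 and 3, against 1.83, 1.66 and 2.05 in sham replicates 1, 2 and 3. The groups did not overlap, but OVX replicate 2 and sham replicate 2 were nearly level, and the means were 1.38 ± 0.341 and 1.85 ± 0.197 (SD, n = 3 each). The difference of mean log2 ratios was -0.45 and -0.22 without OVX replicate 3.

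Set against the nuclear core alone, the mitochondrially encoded members gave a ratio of 30.7, 32.1 and 31.2 in OVX and of 33.7, 34.4 and 35.6 in sham libraries. The means were 31.3 ± 0.751 and 34.6 ± 0.961, a log2 difference of -0.14 that was also -0.14 without OVX replicate 3. Here OVX replicate 3 lay between the other OVX libraries. Accessory over core members gave 18.9, 19 and 30.6 in OVX against 17.4, 19.8 and 16.4 in sham libraries, where OVX replicate 3 alone stood out. An exact permutation test of 3 libraries against 3 cannot give a p under 0.1, and no p was computed for these sums over members.

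**Figure D3:**
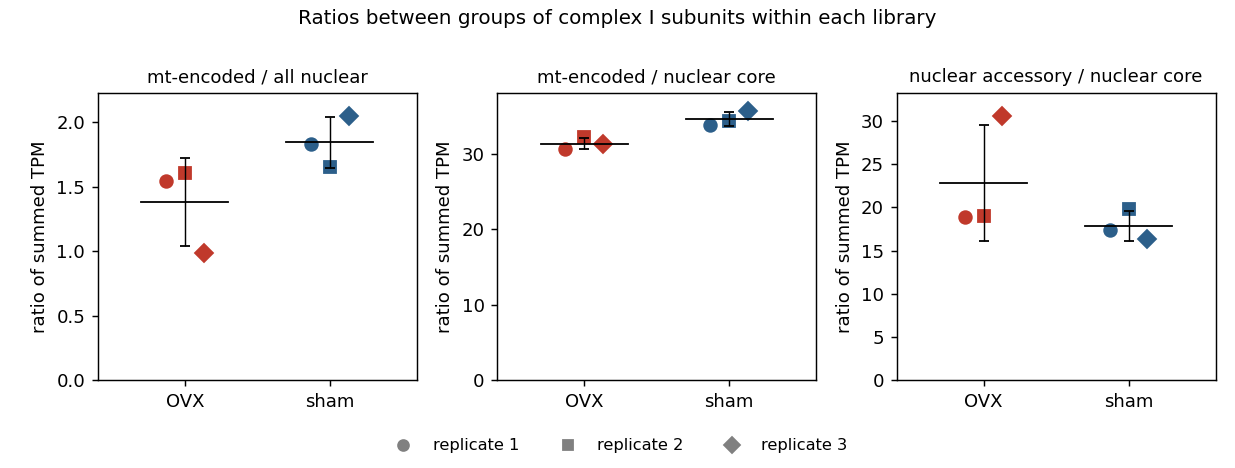
Ratios of summed TPM (y axis, from 0) between groups of complex I members in each OVX and sham library, with mean and SD of 3. The ratio of mitochondrially encoded to nuclear core members is 30.7 to 32.1 in OVX and 33.7 to 35.6 in sham libraries, while the other panels show OVX replicate 3 far from OVX replicates 1 and 2.

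Nuclear members with shorter transcripts, a property the rule did not use, were more often high in OVX replicate 3. Exceptions both ways included Ndufa13 (1251 nt, 1.07 above OVX replicates 1 and 2 on the log2 scale) and Ndufb9 (704 nt, 0.016 above). Among short mitochondrially encoded members, mt-Nd3 (348 nt) was 0.64 below, while mt-Nd4l (297 nt) and mt-Nd6 (519 nt) were 1.64 and 0.57 above. The nuclear members were short, with a mean length over listed transcripts of 370.5 to 1661 nt and a median of 683 nt, against a median of 2296 nt for all tested genes. The 15 nuclear members under 600 nt had a median log2 difference of 0.86 between OVX replicate 3 and OVX replicates 1 and 2, the 16 members of 600 to 1000 nt had 0.73, and the 8 members of 1000 to 2000 nt had -0.16. Other tested genes of the same length bins had medians of 0.71, 0.35 and -0.25. Short genes outside complex I were thus also high in this library, by less than the members in both bins under 1000 nt.

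OVX replicates 1 and 2 showed no such order. Their median log2 difference from sham in these bins was -0.04, -0.08 and 0.02 for the nuclear members and -0.06, -0.0062 and -0.0023 for the other genes. Across the 39 nuclear members, which share their libraries, Pearson's r between log2 length and the difference in OVX replicate 3 was -0.66 and Spearman's rho was -0.53, while rho over the 8130 other genes of all lengths was 0.03. The part of transcript length, or of what goes with it, in the accessory values of this library was not tested.

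**Figure D4:**
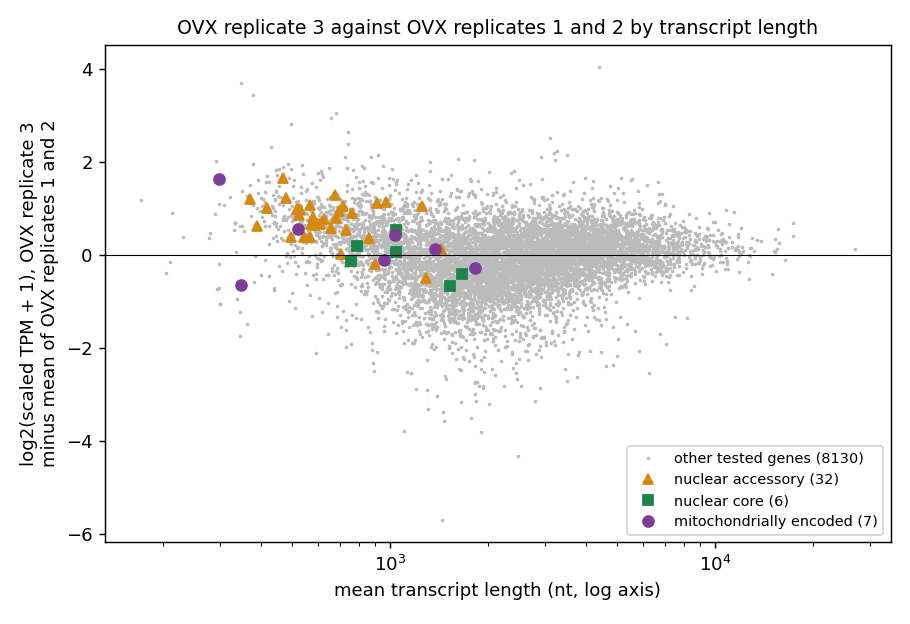
Difference between OVX replicate 3 and the mean of OVX replicates 1 and 2 (y axis, log2 of scaled TPM + 1) against mean transcript length in nt (x axis, log scale), with 1 point per tested gene. Members are coloured, other genes are gray. Accessory members under 1000 nt lie mostly above 0, where other genes of that length also lie, and the 6 nuclear core members plotted lie between -0.67 and 0.55.

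The composition of the listed transcripts also differed between members. The table lists 85 of 191 annotated transcripts of the 46 genes, with all of them for 17 members, and for 8 members the leading transcript is not annotated as protein coding. Ndufa5, an accessory subunit of the Q module, is an example: its non-coding ENSMUST00000141274 had 306.4, 241.0 and 644.3 in OVX against 269.5, 311.0 and 231.1 in sham libraries, and its coding ENSMUST00000023851 had 17.10, 17.27 and 38.51 against 18.80, 23.63 and 17.55. Both were highest in OVX replicate 3. Summed over nuclear members, transcripts annotated as coding had 6292, 6044 and 10290 in OVX against 6373, 6982 and 5658 in sham libraries, and the other transcripts had 1263, 1200 and 2660 against 1249, 1329 and 1102, so the high value of OVX replicate 3 was present in both classes.

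**Figure D5:**
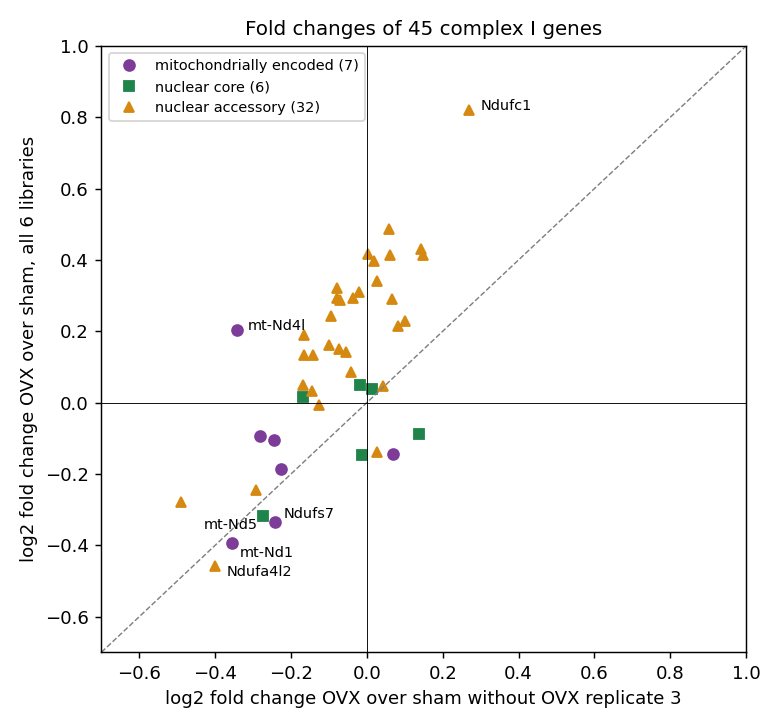
Log2 fold change OVX over sham of 45 members with all 6 libraries (y axis) against the same without OVX replicate 3 (x axis), with equality as a dashed line. Accessory members lie mostly above the line, and mt-Nd1, mt-Nd5, Ndufs7 and Ndufa4l2 lie below 0 on both axes.

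The promoters of the nuclear members were searched for the letters of 2 motifs whose factors, NRF1 and the ETS protein GABP, are known regulators of respiratory genes. Of the 39 nuclear members 32 had an entry in the RefSeq promoter table of GRCm38.p6, which holds 250 bases before and 50 after each start. On either strand, the NRF1 letters (GCGCA and GCGC, 1 base of any kind apart) were in 7 of the 32 (21.9%), against 4.6% of all 32851 promoters, and the ETS letters CCGGAAG were in 4 (12.5%), against 8.86%. Neither motif contains the other, and 11 members held at least 1 of them. The Ndufb4 promoter held 3 NRF1 matches, of which 1 lies in the bases shown. Matches elsewhere in the searched promoters are not shown. The 3 promoters below are shown because a match lies within the 120 bases upstream of the annotated gene in both RefSeq and GENCODE. This match is in capitals:

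Ndufb4, chr16:37654454-37654573, minus strand: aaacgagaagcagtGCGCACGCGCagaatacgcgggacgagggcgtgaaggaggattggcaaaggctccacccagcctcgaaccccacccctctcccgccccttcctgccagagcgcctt

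Ndufs5, chr4:123718203-123718322, minus strand: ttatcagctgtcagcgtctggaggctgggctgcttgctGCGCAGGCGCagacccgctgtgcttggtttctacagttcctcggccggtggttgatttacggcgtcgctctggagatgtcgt

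Ndufa11, chr17:56717642-56717761, plus strand: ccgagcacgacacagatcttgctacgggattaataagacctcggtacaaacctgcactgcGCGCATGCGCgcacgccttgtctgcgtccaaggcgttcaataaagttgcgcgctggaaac

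Fold changes overlapped between promoters with and without these letters. The 7 members with an NRF1 match had fold changes of -0.01 to 0.43 with a median of 0.21, and 0.0039 without OVX replicate 3. The 4 with an ETS match alone had 0.04 to 0.16 with a median of 0.10. The 21 members with neither match had -0.32 to 0.82 with a median of 0.23, and -0.07 without it. OVX replicate 3 was the highest library for 7 of the 7 and for 17 of the 21. A match of letters does not show that a factor binds there.

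The assembly factors, which build the complex and leave it, did not move as a group. Of 18 in the list 17 were in the table and 15 were tested, with 9 above and 6 below 0, a median of 0.04, and none past the adjusted p or an unadjusted p under 0.05 in limma. Without OVX replicate 3 there were 7 above and 10 below 0 of 17 tested, with a median of -0.06. The smallest p was at Ndufaf1, which is needed for the membrane arm, with 8.864, 5.246 and 14.39 scaled TPM in OVX against 1.489, 0.811 and 8.771 in sham libraries. The groups overlapped through sham replicate 3, and the log2 fold change was 1.48 ± 0.64 (limma adjusted p = 0.704), or 1.17 without OVX replicate 3.

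The 6 other mitochondrially encoded proteins, subunits of complexes III, IV and V, were all below 0, with a median of -0.34 and -0.19 without OVX replicate 3, and 5 of them had all OVX libraries below sham, beside 7.6% of all tested genes. mt-Co3, a core subunit of cytochrome c oxidase, had 5679, 5263 and 5105 in OVX against 8506, 9291 and 5913 in sham libraries. For all 6 the lowest library was OVX replicate 3, which was so for 3 of the 7 complex I genes of the same genome. The ribosomal RNA mt-Rnr2, from the start of the heavy-strand transcript, had 21560, 27540 and 26680 in OVX against 24710, 27340 and 20720 in sham libraries and overlapped fully.

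The 40 tested nuclear subunits of complexes II to V had 27 fold changes above and 13 below 0, and 10 above and 30 below without OVX replicate 3. None passed the adjusted p or an unadjusted p under 0.05 in limma with all libraries. OVX replicate 3 was their highest library for 26 and their lowest for 9, against 27 and 1 of the 32 accessory genes of complex I. Of all tested genes it was the highest for 32.6% and the lowest for 32.9%. For 4 of the 40, Atp5g2, Atp5d, Uqcrc1 and Atp5a1, all OVX libraries lay below sham, beside 7.6% of all tested genes. Among the genes that transcribe and maintain mitochondrial DNA, 6 of 14 tested were above and 8 below 0, and without OVX replicate 3 the balance turned to 7 above and 5 below 0 of 12 tested. Twnk, the mitochondrial helicase, had 1.118, 0.596 and 0.229 in OVX against 2.357, 1.261 and 2.704 in sham libraries, a log2 fold change of -0.92 ± 0.28 (unadjusted p = 0.0131, limma adjusted p = 0.66; -0.74 without OVX replicate 3) at a level close to the filter. Of the 6 tested biogenesis regulators 2 were above and 4 below 0, with 3 above and 3 below without OVX replicate 3, and Gabpb1, a subunit of the ETS factor named above, had 16.65, 15.15 and 13.26 against 16.90, 17.80 and 22.70.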

How the data were processed

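Sample titles gave the groups and replicate numbers. The authors deposited TPM for 23115 transcripts of 11815 genes in each of the 6 libraries, in 1 table. The submitters' processing notes name HISAT2 2.0.5 and featureCounts 1.5.0-p3, and the study's methods name mm10. No source used here says how TPM per transcript were made. TPM keep no counts, so the depth of each library cannot be read from the table and no counting interval is given. The 6 comparison columns (the authors' mean level, fold change and p-values) were not used.

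TPM were summed per gene over listed transcripts and scaled by unweighted TMM (trimming 30% of M and 5% of A values from either end), with factors of 1.002, 1.007 and 0.832 for OVX and 1.048, 0.999 and 1.139 for sham replicates 1, 2 and 3. limma 3.58.1 (R 4.3.3) was fitted to log2(scaled TPM + 1), with a mean-variance trend in the empirical Bayes step and group as its single term, for 8185 genes with a mean of at least 1, with Benjamini-Hochberg adjustment over all of them. The pseudocount understates the change of low genes. The fit was tested on simulated data with independent noise per gene. These held no library that stands apart, no trend with length and no changes as small as those of most members. Gene positions, lengths and transcript classes are from GENCODE M21 (GRCm38), promoters from RefSeq.

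Members and lists were chosen with earlier results of these data known, so lists are described by counts and medians, with no test. Named genes were the mitochondrially encoded and nuclear core subunits, up to 5 other members per direction by smallest p, the 3 most abundant nuclear members, Ndufa4 and Ndufa4l2, and up to 4 genes of each list by smallest p (by level for cell type lists). Examples beyond this rule (Ndufa5, Ndufb4, Ndufb1-ps, Ndufs4, Ndufb9, Ndufa11, Gm10132, Mb, Lcn2, Ltf, Myh1, Myh4, Adgre1, Csf1r, Itgam and Cd68) were chosen after their values were seen. Alternatives were other scalings, filters and pseudocounts, the leading transcript per gene, library weights, a length and GC correction, a replicate block and leaving out each library. Protein-coding genes only was added after seeing the data. The values of 1 member count in the sums and counts but are not reported here.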

Additional observations from a re-analysis of the deposited data

How the results depend on the processing

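Not one of the 26 named complex I genes passed an adjusted p of 0.05 in limma under any setting. The count of all genes called higher, 1, was 0 with a pseudocount of 0.1, with the replicate block and with protein-coding genes only, 2 with the leading transcript per gene and with the length and GC correction, 22 with library weights, and 0 to 9 when 1 library was left out. The count called lower, 0 (277 at an unadjusted p under 0.05), was 7 with library weights, 1 with the length and GC correction and 0 to 3 when 1 library was left out. The highest of both ranges was without OVX replicate 3. Replicate numbers were shared by OVX and sham, but same-numbered libraries did not deviate together (r of -0.06, -0.13 and -0.25), so the block is given here only.

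The median of the mitochondrially encoded members, -0.14, was -0.31 on TPM as deposited, -0.27 with equal nuclear-encoded totals, -0.24 with library weights, -0.44 with the length and GC correction and -0.25 to -0.10 when 1 library was left out. The count of nuclear members below 0, 9, was 21, 16 and 26 under the first 3 of these. It was 8 to 23 when 1 library was left out, highest without OVX replicate 3. With the length and GC correction most nuclear members were above 0. The log2 ratio of mitochondrially encoded to nuclear members was -0.57 to -0.22 when 1 library was left out. Its sign could not turn there, because the ratios of the groups do not overlap. Scaling does not enter a ratio within a library, so a sign below 0 across scalings adds nothing.

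Signs changed for 13 of the named members, with main log2 fold changes from -0.28 to 0.24. On TPM as deposited, Ndufs3 was -0.13, Ndufv2 -0.15, Ndufs8 -0.12 and Ndufa4 -0.019. With equal nuclear-encoded totals, Ndufs3 was -0.081, Ndufv2 -0.11 and Ndufs8 -0.069. With the leading transcript per gene, Ndufs3 was -0.038, Ndufv2 -0.040, Ndufs8 -0.00079 and Ndufa10 0.063. With library weights, mt-Nd3 was 0.070, mt-Nd4l -0.57, Ndufs3 -0.081, Ndufv2 -0.14, Ndufs1 0.18, Ndufv1 0.11, Ndufs8 -0.044, Ndufa10 0.058, Ndufa1 -0.073 and Ndufa4 -0.057. With the length and GC correction, mt-Nd4l was -0.24, Ndufv2 -0.037, Ndufa8 0.013, Ndufa1 -0.0042 and Ndufa4 -0.034. When 1 library was left out, ranges were -0.32 to 0.070 for mt-Nd3, -0.28 to 0.049 for mt-Nd6, -0.34 to 0.88 for mt-Nd4l, -0.084 to 0.13 for Ndufs3, -0.17 to 0.14 for Ndufv2, -0.24 to 0.14 for Ndufs1, -0.35 to 0.032 for Ndufv1, -0.019 to 0.12 for Ndufs8, -0.49 to 0.044 for Ndufb4c, -0.24 to 0.027 for Ndufa10, -0.13 to 0.058 for Ndufa8, -0.094 to 0.42 for Ndufa1 and -0.074 to 0.27 for Ndufa4. The cause of these changes was not tested.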
